A study of Caenorhabditis elegans with 6 samples.

Results

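The hedgehog-related and patched-related genes of *Caenorhabditis elegans* were examined in whole-animal mRNA of *nhr-49(nr2041)* mutants and wild-type animals. The members were the rows of the deposited expression table whose symbol begins with wrt- (warthog), grd- (groundhog), grl- (ground-like), hog- (hog), qua- (quahog), ptc- (patched) or ptr- (patched-related), and that were above 0 in at least 1 library. Of 87 rows with such a symbol, 83 met this rule, among 19579 genes above 0 in the whole table. The other 4 (*grl-24*, *grl-29*, *grl-32* and *ptc-2*) were listed at 0 in every library. The libraries are 3 of strain PMD122, *nhr-49(nr2041)*, and 3 of strain PMD121, wild type at *nhr-49*. All 6 came from late L4 larvae grown at 20°C on HT115 bacteria carrying the empty vector for RNAi throughout development, so the control bacteria are shared by both genotypes. Each genotype is 1 strain, kept from F2 homozygotes of a cross of N2 to an *nhr-49(nr2041)* strain. The *nhr-49* lesion and any other difference between the pair of strains therefore cannot be told apart. The labels call the libraries of a genotype biological replicates.

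*C. elegans* lacks a canonical Hedgehog ligand and the Smoothened protein, but has large families of secreted proteins that resemble Hedgehog. These carry an amino-terminal Wart, Ground or Ground-like domain, and some also carry the self-cleaving Hog domain at the carboxyl end. The patched and patched-related proteins are membrane proteins with a sterol-sensing domain, and members of both groups act in the epidermis, the cuticle and molting, where many are transcribed in waves that follow the larval molts. NHR-49 is a nuclear hormone receptor, related to mammalian HNF4, that controls genes of fatty acid desaturation and β-oxidation.

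Values are RPKM, reads scaled by the length of the gene and by the total of the library. Fold changes are log2 of RPKM + 1, *nhr-49(nr2041)* minus wild type, from limma fitted over the 13965 genes that reached 1 RPKM in 3 or more libraries. A gene was called at a Benjamini-Hochberg adjusted p under 0.05 over all of those genes. Library totals implied by the values were 24523159 to 29408147 reads in the mutants and 27190567 to 30183162 reads in wild type. *nhr-49* itself was at 26.1, 22.1 and 26.1 RPKM in mutant libraries, against 39.4, 40.8 and 37.8 RPKM in wild-type libraries (log2 fold change -0.65, limma adjusted p = 0.016), a value for the whole gene that does not separate the deleted part. In a principal component analysis the first component, with 59.4% of the variance, separated the genotypes. The second, with 22.4%, set mutant replicate 1 and wild-type replicate 2 apart from the other 4 libraries. Calls that change without these 2 libraries are given both ways. In whole animals, fewer cells of a type and less RNA per cell cannot be told apart.

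Of the 63 members that passed the filter on low values, 3 rose in *nhr-49(nr2041)* animals and 0 fell, and all 3 were warthogs: *wrt-8*, *wrt-4* and *wrt-6*. Over all genes tested, 3.32% were called higher and 0.816% lower. At an unadjusted p under 0.05, 7 members were higher and 3 lower, against 10.9% and 2.28% of all genes, and limma voom on the reads recovered from the RPKM also called 3 higher and 0 lower. The median log2 fold change of the 63 members was 0.12, and that of all genes tested was 0.10. For 53 of the 63, the 95% interval of the fold change lay within 1 log2 unit on either side of 0, and the median standard error was 0.18. The remaining 20 members were too low for the test and are described by their reads.

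**Figure D1:**
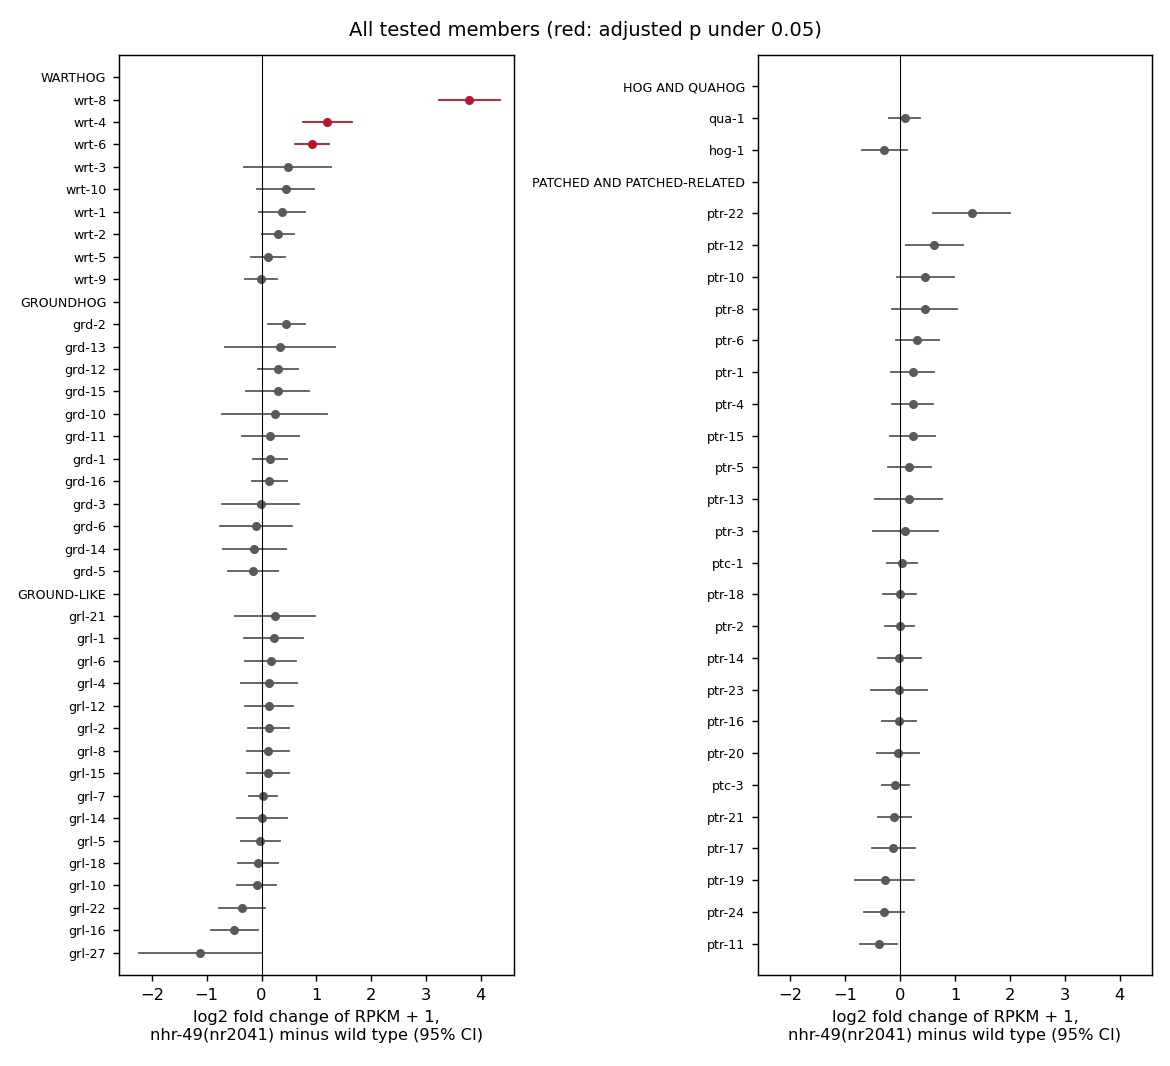
Log2 fold change of RPKM + 1, *nhr-49(nr2041)* minus wild type, for the 63 tested members grouped by family, with 95% confidence intervals from limma (3 libraries per genotype). Red points are the members with an adjusted p under 0.05: *wrt-8* at 3.79, *wrt-4* at 1.20 and *wrt-6* at 0.92.

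Warthog proteins are secreted and carry the Wart domain. The change of largest size in any member was that of *wrt-8* (chromosome V, 15342054 to 15344581, minus strand, WBcel235). It was at 131, 103 and 83.6 RPKM in mutant libraries, against 8.82, 4.64 and 6.95 RPKM in wild-type libraries. Every mutant library was far above every wild-type library. The means were 106 ± 23.9 RPKM in the mutants and 6.80 ± 2.09 RPKM in wild type (SD, n = 3 each), a ratio of 15.6. The log2 fold change was 3.79 with a standard error of 0.24 and a 95% interval of 3.23 to 4.35 (limma adjusted p = 8.08e-05). These values rest on 15106 reads in the mutants and 1063 in wild type.

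*wrt-4* (chromosome X, 15752257 to 15757269, minus strand) was the warthog of highest level in the mutants, at 296, 287 and 284 RPKM in mutant libraries, against 152, 90.7 and 142 RPKM in wild-type libraries. The mutant libraries lay close together, and the spread was in wild type, where replicate 2 was the low library. The ratio of means was 2.25 and the log2 fold change 1.20 (SE 0.19, 95% interval 0.75 to 1.65, limma adjusted p = 0.012). Without mutant replicate 2 the fold change was 1.20 again, but the adjusted p was 0.061 and the call was lost. Without wild-type replicate 2 the log2 fold change was 0.97 (limma adjusted p = 0.0032).

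*wrt-6* (chromosome X, 3480250 to 3483666, plus strand) was at 186, 189 and 213 RPKM in mutant libraries, against 110, 86.4 and 114 RPKM in wild-type libraries. The genotypes did not overlap, and the ratio of means was 1.90. The log2 fold change was 0.92 (SE 0.13, 95% interval 0.61 to 1.24, limma adjusted p = 0.0075). For *wrt-4* and *wrt-6*, mutant replicate 1 did not stand out from the other mutant libraries, although it did for most members.

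**Figure D2:**
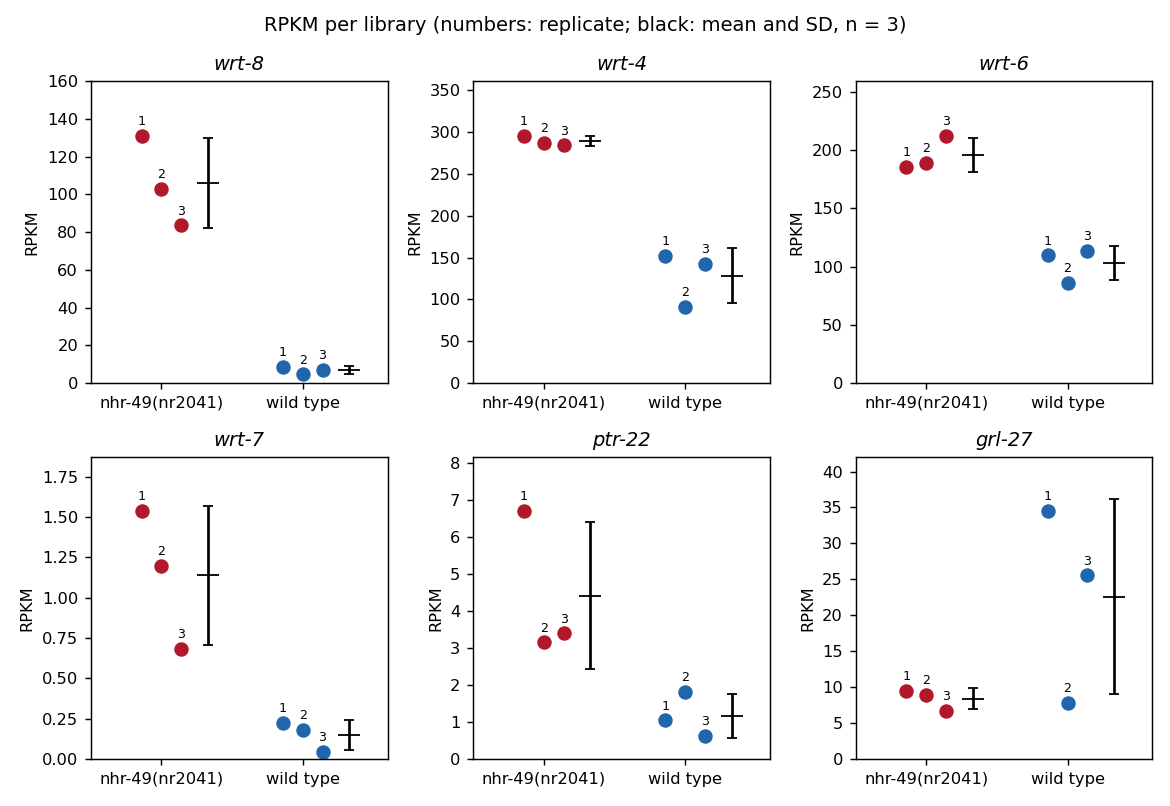
RPKM in each library of *wrt-8*, *wrt-4*, *wrt-6*, *wrt-7*, *ptr-22* and *grl-27*, with *nhr-49(nr2041)* at the left of each panel and wild type at the right. Numbers are replicate numbers, and black bars are the mean and SD of 3 libraries. The genotypes do not overlap in the first 5 genes, while for *grl-27* wild-type replicate 2, at 7.77 RPKM, falls among the mutant libraries.

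*wrt-7* lies 4548 bases from *wrt-8* on the same strand and was the lowest warthog. It was under the filter, at 1.54, 1.20 and 0.682 RPKM in mutant libraries, against 0.221, 0.182 and 0.0447 RPKM in wild-type libraries. In reads this was 62, 53 and 33 in the mutants, against 11, 9 and 2 in wild type. The ratio of means was 7.62. With no filter on low values, *wrt-7* was called as a 4th member higher (log2 fold change 0.88, limma adjusted p = 0.040), where 2.42% of 19579 genes were called higher and 0.531% lower.

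The other warthogs did not pass the test. *wrt-10*, the warthog of highest level in wild type, was at 284, 179 and 195 RPKM in mutant libraries, against 128, 201 and 153 RPKM in wild-type libraries, and the groups overlapped (log2 fold change 0.44, limma adjusted p = 0.46). *wrt-1* was at 148, 98.1 and 95.3 RPKM in the mutants, against 84.0, 94.1 and 79.5 RPKM in wild type. Its lowest mutant library was just above its highest wild-type library (log2 fold change 0.38, limma adjusted p = 0.44). The annotated ends of *wrt-1* and *wrt-10* are 15 bases apart on opposite strands.

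*wrt-2* was at 89.6, 75.0 and 75.2 RPKM in mutant libraries, against 59.5, 72.4 and 61.6 RPKM in wild-type libraries, with no overlap (log2 fold change 0.31, limma adjusted p = 0.35). It overlaps *pccb-1* on the opposite strand, which averaged 126 RPKM over the 6 libraries, and whether reads were counted by strand is not given in the sources used here. *wrt-3*, *wrt-5* and *wrt-9* had log2 fold changes of 0.47, 0.12 and -0.002, with overlapping groups. Summed over the 10 warthogs, the level was 1193, 977 and 991 RPKM in the mutants, against 587, 596 and 598 RPKM in wild type. Without the 3 that rose, the sums were 580, 397 and 410 RPKM in the mutants, against 317, 414 and 335 RPKM in wild type, and the groups overlapped.

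The warthogs that rose share a feature that the symbols do not show. The Hog domain, which in other animals cleaves the Hedgehog precursor, is carried by *wrt-1*, *wrt-4*, *wrt-6*, *wrt-7* and *wrt-8*, and by *grd-1*, *grd-2*, *grd-11*, *hog-1* and *qua-1*, a grouping from general knowledge that was applied after the values had been seen and is given as a description. Of the 4 tested warthogs with the domain, 3 rose, beside 3.32% of all genes tested. In all 4 the mutant libraries lay above the wild-type libraries, which held for 17.6% of all genes tested. 1 of the 3, *wrt-8*, lies where 7 of 9 other tested genes within 25 kb also rose, as given below. Of the 5 tested warthogs without the domain, 0 were called, by limma or by voom. 1 of the 5, *wrt-2*, was higher at an unadjusted p under 0.05, as were 10.9% of all genes tested. The 5 other tested carriers had log2 fold changes from -0.29 to 0.45. None of them was called by either tool, and 1, *grd-2*, was higher at an unadjusted p under 0.05.

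Groundhog proteins carry the Ground domain. Of 17 members, 12 were tested, and limma and voom called 0 in either direction, with 1 higher and 0 lower at an unadjusted p under 0.05. Over all genes tested, limma called 3.32% higher and 0.816% lower, and 10.9% and 2.28% passed the unadjusted p. *grd-5*, the most abundant, was at 436, 292 and 260 RPKM in mutant libraries, against 394, 327 and 351 RPKM in wild-type libraries (log2 fold change -0.15, SE 0.20). Its log2 fold change was -0.43 without the 2 libraries that stand apart, where it was called lower (limma adjusted p = 0.021). *grd-14* was at 174, 136 and 94.3 RPKM in the mutants, against 171, 113 and 154 RPKM in wild type (log2 fold change -0.13, SE 0.25). In both, the groups overlapped with all libraries but not without the 2 libraries that stand apart. In that fit the log2 fold change of *grd-14* was -0.51 (limma adjusted p = 0.089). *grd-6* was at 46.0, 55.7 and 36.7 RPKM in the mutants, against 64.4, 31.2 and 57.4 RPKM in wild type, and likewise overlapped with all libraries only. Without the 2 libraries that stand apart its log2 fold change was -0.42 (limma adjusted p = 0.22).

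Of the groundhogs, 2 had every mutant library above every wild-type library. *grd-2*, a Hog carrier, was at 22.9, 20.1 and 20.5 RPKM in mutant libraries, against 16.3, 12.6 and 16.997 RPKM in wild-type libraries (log2 fold change 0.45, SE 0.14, limma adjusted p = 0.20). *grd-16* was at 1.38, 1.19 and 1.32 RPKM in the mutants, against 1.06, 1.04 and 1.12 RPKM in wild type (log2 fold change 0.14), and its sign turned under quantile normalization. Neither passed the test. The other groundhogs tested had log2 fold changes between -0.02 and 0.34.

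A run of 3 groundhog genes on chromosome IV, *grd-13*, *grd-3* and *grd-10*, lies within 3438312 to 3441841 on the plus strand, with 147 and 601 bases between neighbors. These genes were picked out after their values had been seen. *grd-13* was at 74.8, 47.1 and 34.1 RPKM in mutant libraries, against 21.9, 69.6 and 38.2 RPKM in wild-type libraries. *grd-10* was at 77.7, 42.1 and 30.9 RPKM in the mutants, against 25.03, 64.7 and 37.3 RPKM in wild type. In all 3 genes, *grd-3* included, mutant replicate 1 and wild-type replicate 2 were the highest libraries of their genotypes, and the log2 fold changes were 0.34, -0.02 and 0.24, with standard errors of 0.43, 0.30 and 0.41. Without wild-type replicate 2 the log2 fold changes were 0.75 for *grd-13*, 0.22 for *grd-3* and 0.60 for *grd-10*, and without both libraries that stand apart 0.46, -0.04 and 0.23. None was called in these fits by limma (lowest adjusted p = 0.37).

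Ground-like proteins carry a domain related to the Ground domain. This was the largest family, with 29 members above 0, of which 16 were tested. Limma and voom called 0 of them, where limma called 3.32% of all genes tested higher and 0.816% lower. At an unadjusted p under 0.05, 0 were higher and 2 lower, beside 10.9% and 2.28% of all genes tested. *grl-16* had the highest mean level of all members, at 460, 530 and 387 RPKM in mutant libraries, against 786, 510 and 658 RPKM in wild-type libraries. Wild-type replicate 2 fell among the mutant libraries (log2 fold change -0.49, SE 0.19, limma adjusted p = 0.30). Without the 2 libraries that stand apart it was -0.67 and called lower (limma adjusted p = 0.028). *grl-7* was at 268, 247 and 238 RPKM in the mutants, against 250, 263 and 223 RPKM in wild type. *grl-5* was at 257, 191 and 186 RPKM in the mutants, against 228, 219 and 190 RPKM in wild type. Both had fold changes near 0, at 0.04 (95% interval -0.22 to 0.29) and -0.02 (95% interval -0.38 to 0.34).

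*grl-27* (chromosome V, 3575055 to 3575859, minus strand) had the most negative fold change of the tested members, and 1 library decided it. It was at 9.503, 8.93 and 6.69 RPKM in mutant libraries, against 34.5, 7.77 and 25.5 RPKM in wild-type libraries. With all libraries the log2 fold change was -1.12 (SE 0.47, 95% interval -2.23 to -0.01, limma adjusted p = 0.37). Without wild-type replicate 2 it was -1.72 and called lower (limma adjusted p = 0.0034), in a fit that called 0.924% of all genes lower. Without that library and mutant replicate 1 it was -1.81 (limma adjusted p = 1.92e-04).

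The same wild-type library was low for *grl-28* and *grl-30*, which lie in the same stretch of chromosome V (3551346 to 3551865 and 3556286 to 3556804) and were under the filter. *grl-28* had 0, 0 and 0 reads in mutant libraries, against 5, 0 and 4 reads in wild-type libraries. *grl-30* had 2, 3 and 4 reads in the mutants, against 15, 2 and 11 reads in wild type. *grl-31*, 332 bases from *grl-30* in the same stretch, had 6, 3 and 4 reads in the mutants, against 8, 0 and 2 reads in wild type, so that replicate 2 was again low but the mutants were not lower. The summed level of 8 adult cuticle genes was also lowest for wild type in replicate 2, at 4515, 3562 and 3648 RPKM in the mutants, against 5094, 3780 and 4441 RPKM in wild type. Their part in the values of *grl-27* was not tested.

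*grl-22* alone among the tested members had its mutant libraries below the whole wild-type range, which held for 3.78% of all genes tested. It was at 7.34, 6.09 and 6.54 RPKM in the mutants, against 11.1, 7.63 and 7.90 RPKM in wild type (log2 fold change -0.35, limma adjusted p = 0.46). It overlaps a gene on the opposite strand, W03A5.1, at a mean of 5.68 RPKM. The remaining tested ground-like genes had log2 fold changes between -0.09 and 0.25. *grl-2*, which marks the excretory duct and pore, was at 2.10, 2.37 and 2.30 RPKM in the mutants, against 2.13, 2.25 and 1.59 RPKM in wild type. It overlaps T16G1.9 on the opposite strand, at a mean of 40.3 RPKM, so its reads may not all be its own.

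The small hog and quahog groups have 1 member each. *qua-1*, which is required for molting, was at 167, 131 and 145 RPKM in mutant libraries, against 137, 148 and 132 RPKM in wild-type libraries (log2 fold change 0.08, 95% interval -0.20 to 0.37). *hog-1* was at 24.9, 18.4 and 15.4 RPKM in the mutants, against 25.6, 22.5 and 23.1 RPKM in wild type (log2 fold change -0.29, limma adjusted p = 0.56). Both overlapped between genotypes.

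**Figure D3:**
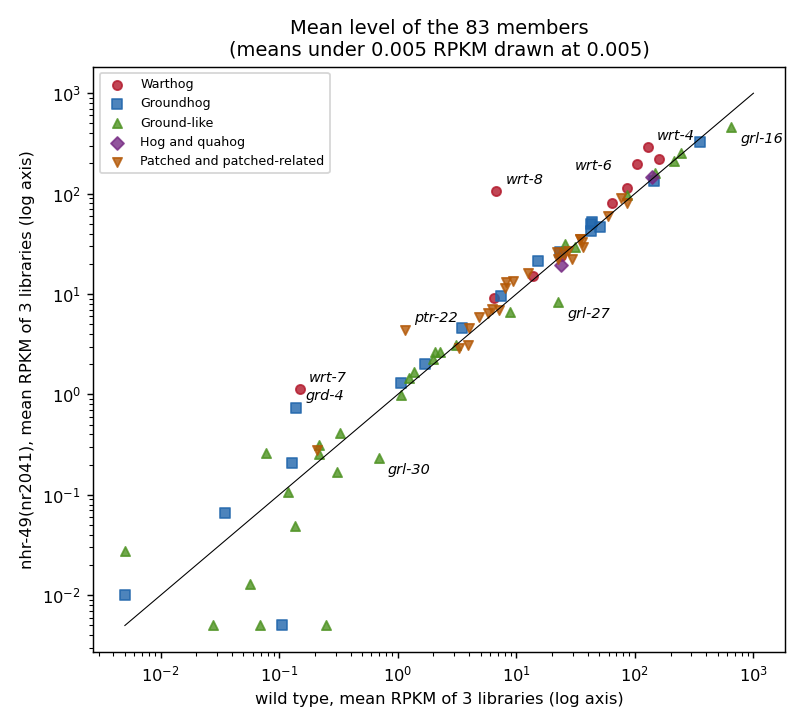
Mean RPKM of 3 libraries for each of the 83 members, *nhr-49(nr2041)* on the vertical axis and wild type on the horizontal axis, both on log scales, with the line of equal levels. Most members follow the line from under 0.1 to over 100 RPKM, and *wrt-8*, with means of 106 RPKM in the mutants and 6.80 RPKM in wild type, lies farthest above it among abundant members.

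Per gene, the families differed in level. The median of the mean RPKM over the 6 libraries was 72.2 for the 9 tested warthogs, 33.8 for the 12 tested groundhogs and 11.6 for the 16 tested ground-like genes, and 18.3 for the 24 tested patched and patched-related genes. Within each family the levels ran over a wide range, as in the ground-like genes, where tested members went from 1.03 RPKM in *grl-18* to 555 RPKM in *grl-16*.

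Of the patched and patched-related genes, 25 were above 0, 24 were tested and 0 were called by limma or voom. Of the 24, 2 were higher and 1 lower at an unadjusted p under 0.05, beside 10.9% and 2.28% of all genes tested. Limma called 3.32% of all genes tested higher and 0.816% lower. *ptc-3*, an essential patched protein, was at 84.3, 81.6 and 76.2 RPKM in mutant libraries, against 86.8, 92.3 and 78.3 RPKM in wild-type libraries. *ptc-1*, which is needed for cytokinesis in the germline, was at 33.0, 34.4 and 37.8 RPKM in the mutants, against 35.0, 30.7 and 37.1 RPKM in wild type. The intervals of their log2 fold changes were narrow, -0.34 to 0.17 for *ptc-3* and -0.24 to 0.31 for *ptc-1*. A change of 1 log2 unit in either is outside these bounds.

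*ptr-4*, which acts at the apical surface of the epidermis, was at 111, 77.7 and 82.5 RPKM in mutant libraries, against 72.5, 86.0 and 70.3 RPKM in wild-type libraries (log2 fold change 0.23, SE 0.16). *ptr-18* was at 68.5, 58.1 and 51.1 RPKM in the mutants, against 61.8, 58.0 and 57.2 RPKM in wild type (log2 fold change -0.004, SE 0.13). With *ptc-3*, these were the most abundant of the family, and the genotypes overlapped in each.

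The largest fold change among the patched and patched-related genes was that of *ptr-22* (chromosome V, 18919221 to 18931379, minus strand). It was at 6.71, 3.15 and 3.40 RPKM in mutant libraries, against 1.04, 1.81 and 0.626 RPKM in wild-type libraries. The groups did not overlap, but mutant replicate 1 was far above the other mutant libraries. The log2 fold change was 1.30 (SE 0.30, 95% interval 0.60 to 2.01) and the limma adjusted p was 0.067, or 0.051 with voom. It was called higher without wild-type replicate 2 (1.51, limma adjusted p = 0.035, where 3.62% of all genes were called higher) and without both libraries that stand apart (1.23, limma adjusted p = 0.0045).

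Apart from *ptr-22* and *ptr-12*, the tested patched-related genes had log2 fold changes from -0.39 for *ptr-11* to 0.46 for *ptr-10*. *ptr-10* was at 18.2, 11.2 and 11.2 RPKM in mutant libraries, against 7.81, 11.4 and 9.13 RPKM in wild-type libraries, and *ptr-8*, at 0.45, had the same libraries at the top. *ptr-24* was at 26.1, 29.96 and 32.2 RPKM in the mutants, against 40.0, 29.5 and 40.6 RPKM in wild type, where replicate 2 again fell among the mutant libraries (log2 fold change -0.30, limma adjusted p = 0.48). These 3 were named after their values had been seen.

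*ptr-12* also had every mutant library above every wild-type library, at 17.1, 11.98 and 10.4 RPKM in the mutants, against 6.50, 10.02 and 7.83 RPKM in wild type (log2 fold change 0.62, limma adjusted p = 0.26). At the other end, *ptr-11*, named after its values had been seen, was at 26.5, 20.6 and 19.9 RPKM in the mutants, against 30.6, 31.5 and 26.4 RPKM in wild type (log2 fold change -0.39, limma adjusted p = 0.28). The family was split evenly around 0, with 12 positive and 12 negative fold changes and a median of 0.01.

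Over all families, 9 of 63 tested members had the mutant libraries above the wild-type libraries and 1 had them below, beside 17.6% and 3.78% of all genes tested. The direction of small fold changes depended on the scaling. As deposited, 39 of the 63 members were positive, beside 67.3% of all genes. With library medians set equal, 31 were positive, and with quantile normalization 27, where the median of all genes moved to -0.02 and -0.04. *wrt-8*, *wrt-4* and *wrt-6* were called under each scaling.

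Genes that work with these families elsewhere in the animal kingdom, or that share their domains, were taken as a list of 12, of which 11 were tested and 0 were called by limma. At an unadjusted p under 0.05, 3 were higher and 0 lower, beside 10.9% and 2.28% of all genes. *che-14*, a Dispatched-like protein of apical secretion, was at 15.6, 13.3 and 11.6 RPKM in mutant libraries, against 10.1, 9.30 and 8.17 RPKM in wild-type libraries (log2 fold change 0.51, limma adjusted p = 0.17). *hhat-1*, which resembles the Hedgehog acyltransferase, was at 61.5, 49.4 and 51.4 RPKM in the mutants, against 37.1, 42.6 and 39.4 RPKM in wild type (log2 fold change 0.43, limma adjusted p = 0.14). *ncr-1*, a homolog of the Niemann-Pick cholesterol transporter NPC1, was at 11.01, 12.4 and 10.2 RPKM in the mutants, against 8.60, 8.71 and 7.93 RPKM in wild type (log2 fold change 0.37, limma adjusted p = 0.28). In these 3 genes the genotypes did not overlap.

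*tra-1*, the GLI homolog that acts in sex determination, was at 12.8, 16.7 and 16.7 RPKM in mutant libraries, against 21.04, 17.2 and 18.7 RPKM in wild-type libraries (log2 fold change -0.29, limma adjusted p = 0.47). The SCAP homolog *scp-1*, the megalin homolog *lrp-1* and the glypicans *lon-2* and *gpn-1* had log2 fold changes between 0.15 and 0.35. *daf-6*, a patched-related protein of glia, and *ncr-2* were at 0.04 and -0.02, and *hhat-2* was at 0.45 with overlapping groups. *ptd-2* was under the filter, at 1.45, 0.874 and 1.02 RPKM in the mutants, against 0.483, 0.676 and 0.550 RPKM in wild type. As in *che-14*, *hhat-1* and *ncr-1*, the mutant libraries lay above wild type for *scp-1*, *lrp-1*, *lon-2* and *ptd-2*. For *tra-1* they lay below. Of all genes tested, 17.6% lay above and 3.78% below in this way.

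The tissue in which many of these genes act was read from marker lists. Limma called none of the 8 adult cuticle genes, 22 genes of the molting and larval cuticle cycle, 8 epidermal regulators or 6 hypodermis markers. It also called none of the 4 seam cell markers that were tested, of 6 in the list. The others, *ceh-16* and *rnt-1*, were under the filter. *rnt-1* was at 0.890, 1.11 and 0.945 RPKM in the mutants, against 0.351, 0.441 and 0.754 RPKM in wild type. At an unadjusted p under 0.05, 3 entries of the 5 lists were higher and 1 lower, beside 10.9% and 2.28% of all genes tested. The higher entries were *nhr-73* and *elt-3*, which stands in the hypodermis and the regulator lists and was counted in both. All genes of the 5 lists were above 0. Hypodermis markers summed to 4036, 3016 and 2322 RPKM in mutant libraries, against 2123, 3578 and 2452 RPKM in wild-type libraries. Seam cell markers summed to 30.7, 25.6 and 22.3 RPKM in the mutants, against 13.7, 24.0 and 15.9 RPKM in wild type. Molting genes summed to 7148, 6147 and 5777 RPKM in the mutants, against 5957, 6761 and 5613 RPKM in wild type. Epidermal regulators summed to 288, 301 and 306 RPKM in the mutants, against 257, 290 and 260 RPKM in wild type. The genotypes overlapped in each of these sums, and in that of the adult cuticle genes given above. The most abundant genes weigh most in such sums. Taken singly, *elt-1*, *elt-3*, *lin-26*, *nhr-23*, *grh-1* and *nhr-73* had every mutant library above every wild-type library, as had *rnt-1*. *mlt-10* had them below (log2 fold change -0.48, limma adjusted p = 0.057). In the other genes of these lists the genotypes overlapped. Of all genes tested, 17.6% lay above and 3.78% below in this way. By gene, fold changes were positive for 6 of 6 hypodermis, 4 of 4 tested seam, 18 of 22 molting and 8 of 8 regulator genes. For the adult cuticle it was 1 of 8, beside 67.3% of all genes tested. Median log2 fold changes were 0.26, 0.37, 0.27, 0.16 and -0.36 in that order, beside 0.10 for all genes tested. The positive lean was not particular to the epidermis. Of neuron, excretory and intestine markers, 6 of 6, 6 of 6 and 7 of 8 were positive (medians 0.30, 0.15 and 0.18). Glia, pharynx and sperm lists had 4 of 5, 3 of 6 and 4 of 6 tested genes positive. Germline had 1 of 6 and body wall muscle 0 of 7.

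In the mutants, replicate 1 was the highest library for the hypodermis, seam, molting and adult cuticle sums, as it was for *wrt-8* and *wrt-4* but not for *wrt-6*. In wild type, replicate 2 was the highest library for the hypodermis, seam, molting and regulator sums and the lowest for the adult cuticle sum, and it was the lowest for *wrt-8*, *wrt-4* and *wrt-6*. The part of these tissues in the 3 changes was not tested. Without the 2 libraries that stand apart, the log2 fold changes were 3.41 for *wrt-8*, 0.95 for *wrt-4* and 0.84 for *wrt-6*, all called (limma adjusted p of 2.66e-04 at most).

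Across the members as a whole, those 2 libraries carried much of the spread within a genotype. Mutant replicate 1 was the highest mutant library in 49 of the 63 tested members, or 77.8%, beside 53.5% of all genes tested. The median difference of mutant replicate 1 from the mean of the other mutant libraries was 0.30 on the log2 scale in members and 0.13 in all genes. Wild-type replicate 2 was the highest wild-type library in 30 members and the lowest in 24, beside 39.2% and 42.5% of all genes. The differences of the 2 libraries from their own genotypes ran together over the 63 members (Pearson r = 0.48) and over all genes (r = 0.42), values that describe genes sharing the same libraries.

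**Figure D4:**
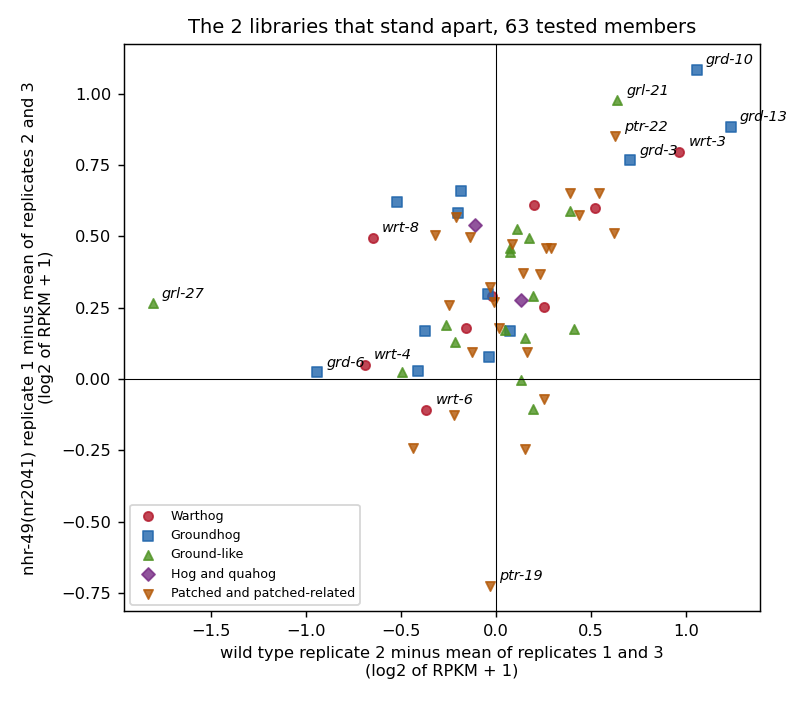
For each of the 63 tested members, wild-type replicate 2 minus the mean of wild-type replicates 1 and 3 (horizontal) and mutant replicate 1 minus the mean of mutant replicates 2 and 3 (vertical), both in log2 of RPKM + 1. Members such as *grd-10* and *grd-13* are high in both libraries, 55 of 63 points lie above 0 on the vertical axis, and *grl-27* is lowest in wild-type replicate 2.

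Markers of the germline and of sperm ran the other way in the same libraries. The 6 germline markers, all above 0, summed to 174, 345 and 478 RPKM in mutant libraries, against 491, 291 and 452 RPKM in wild-type libraries. The 6 sperm markers summed to 198, 255 and 277 RPKM in the mutants, against 297, 118.9 and 258 RPKM in wild type. For both lists the lowest library of each genotype was the one that stands apart. The 7 body wall muscle markers, all above 0, summed to 2601, 4115 and 3730 RPKM in mutant libraries, against 4382, 4547 and 4391 RPKM in wild-type libraries, with mutant replicate 1 the lowest. Each of the 7 had its mutant libraries below the wild-type range (median log2 fold change -0.44), which held for 3.78% of all genes tested. Limma called 0 of the 7, and 2 were lower at an unadjusted p under 0.05, beside 2.28% of all genes tested. The part of these cells in the members' values was not tested.

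With both libraries left out, 7 members were called higher and 6 lower, against 6.80% and 2.51% of all genes. The 7 were *wrt-8*, *wrt-4*, *wrt-6* and *ptr-22*, given above, and *wrt-10*, *wrt-2* and *ptr-12*, with log2 fold changes of 0.42, 0.31 and 0.58 (limma adjusted p of 0.034, 0.042 and 0.039). The 6 were *grl-27*, *grl-16* and *grd-5*, given above, and *hog-1*, *ptr-11* and *ptr-24*, with log2 fold changes of -0.50, -0.47 and -0.36 (limma adjusted p of 0.031, 0.026 and 0.036). This fit leaves 2 libraries per genotype, those that the second component did not set apart, and the choice was made from the data.

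The genes around the risen warthogs were then compared, in windows chosen after the values had been seen. Within 25 kb of *wrt-8*, 9 other genes were tested, of which 7 rose and 1 fell, beside 3.32% and 0.816% of all genes. The gene of the C-type lectin family *clec-230* was at 224, 173 and 130 RPKM in mutant libraries, against 7.44, 8.67 and 6.48 RPKM in wild-type libraries (log2 fold change 4.34, limma adjusted p = 2.04e-05). *clec-229*, *clec-231*, C29F3.3, *srx-58* and ZK1037.6 had log2 fold changes of 2.33, 1.83, 2.58, 1.32 and 2.40. *nhr-269*, of the nuclear hormone receptor family, was at 4.68, 5.24 and 5.89 RPKM in the mutants and was listed at 0 in all 3 wild-type libraries. *clec-231* was at 3.88, 2.27 and 2.20 RPKM in the mutants, against 0.126, 0 and 0 RPKM in wild type. Both passed the filter through the mutant libraries alone, so their place among the 7 is not independent of the filter.

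*ech-1.1*, an enoyl-CoA hydratase gene of β-oxidation, fell in the same window, at 0.517, 1.01 and 1.11 RPKM in mutant libraries, against 6.88, 7.27 and 9.38 RPKM in wild-type libraries (log2 fold change -2.24, limma adjusted p = 4.87e-04). Within 100 kb of *wrt-8*, 11 of 24 tested genes rose and 1 fell, beside 3.32% and 0.816% of all genes tested. Around *wrt-4* and *wrt-6*, 0 of 14 and 0 of 21 tested genes within 100 kb were called by limma or voom. At those shares, 0 calls among so few genes do not set a window apart from all genes. At an unadjusted p under 0.05 there was 1 gene higher around *wrt-4* and 2 genes lower around *wrt-6*, beside 10.9% and 2.28% of all genes tested. Around *ptr-22*, 0 of 20 were called by either tool or passed the unadjusted p. Within 100 kb of *grl-27*, 3 of 12 tested genes were called higher and 0 lower by limma, beside 3.32% and 0.816% of all genes tested. Voom called 3.

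**Figure D5:**
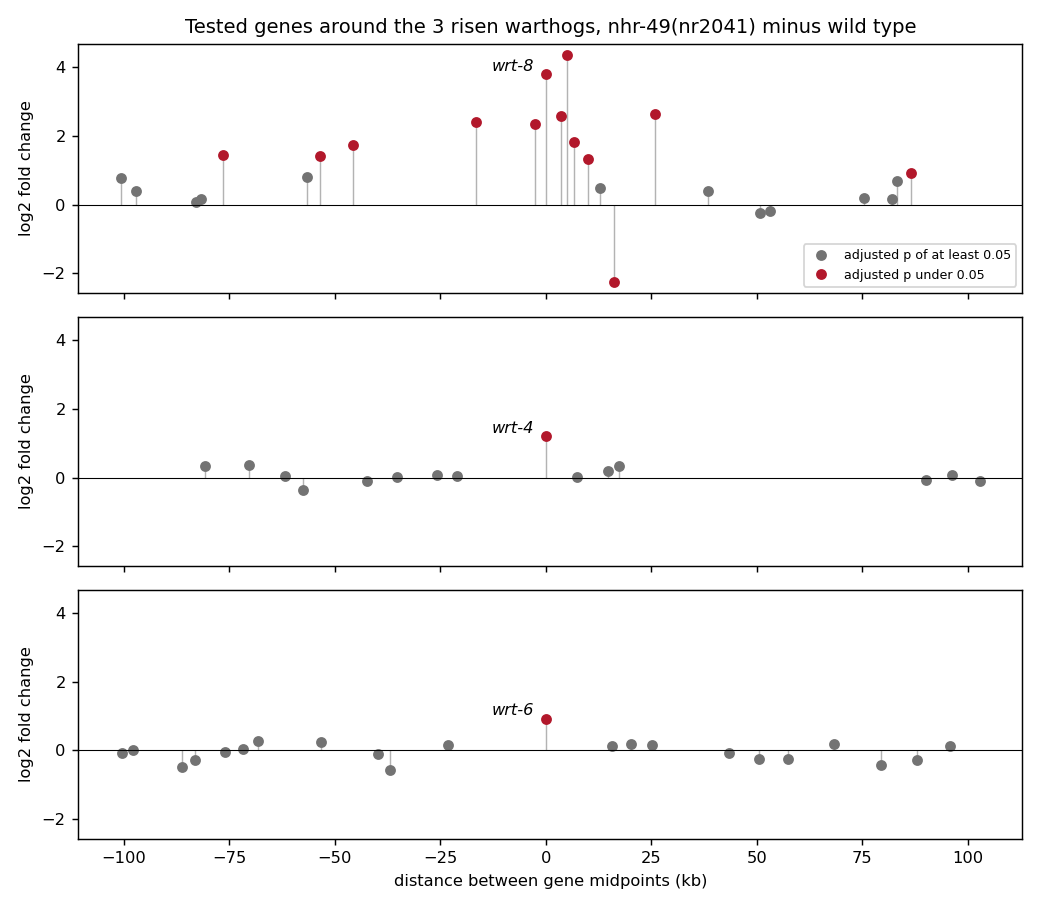
Log2 fold change, *nhr-49(nr2041)* minus wild type, of the tested genes within 100 kb of *wrt-8*, *wrt-4* and *wrt-6*, by distance between gene midpoints in kb. Red points have a limma adjusted p under 0.05. Around *wrt-8*, 11 neighbors are called higher and 1 lower, and around *wrt-4* and *wrt-6* none is called. Of all genes tested, 3.32% are called higher and 0.816% lower.

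The members lie on every chromosome, 9 on I, 11 on II, 6 on III, 12 on IV, 31 on V and 13 on X, for the 82 that could be placed. Of the 20 members under the filter, 13 had fewer than 10 reads in every library, and 62 reads, in *wrt-7*, was the highest value of any. *grd-4*, which lies 184 bases from *grd-14*, had 22, 6 and 9 reads in mutant libraries, against 1, 6 and 1 reads in wild-type libraries. *ptr-9* had 26, 16 and 14 reads in the mutants, against 20, 13 and 14 reads in wild type. Of the 20, 4 had 0 reads in all mutant libraries and 2 had 0 reads in all wild-type libraries. At such depth a difference between genotypes was not detectable for most of them, and reads give counting error only.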

How the data were processed

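Polyadenylated RNA of whole late L4 animals was sequenced as paired ends in 6 libraries. The deposited RPKM per gene and library were made by the authors, whose comparison of genotypes (Baggerly's test, CLC Genomics Workbench) was not used. The genome build is WBcel235 per the submitters' processing notes. The sources used here name neither the read mapper nor the annotation version. The mean of each genotype in the table was not used.

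log2(RPKM + 1) was fitted with limma 3.58.1 (lmFit, eBayes with trend and robust, statmod 1.5.0, R 4.3.3) with genotype as the single term, over genes that reached 1 RPKM in 3 or more libraries, and p-values were adjusted by Benjamini-Hochberg. The RPKM of 100.0% of 19579 genes came back to whole reads within 0.01 reads, which were used for voom and for read counts. They came to 96.1% to 98.7% of the implied totals. The fits were run on simulated reads with changes of known size. These were drawn with the same spread in every library and no library that stands apart. That run checks the code and gives no error rate for the present libraries. An exact permutation test of 1 value, 3 libraries a genotype, cannot go below p = 0.10. Coordinates are those of Ensembl annotation of WBcel235, in which 82 of 83 members were found. Promoter motifs were not searched.

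Members, lists and tests were chosen with earlier results of these data known. Genes were named by rule: called members, the 3 most abundant of each family, the 3 uncalled members with the largest fold change, members whose genotypes did not overlap at 1 RPKM or more, and all of hog-, qua- and ptc-. Any other member named, such as *grl-2*, *grl-28*, *grl-30*, *grl-31*, *grd-4* and *ptr-9*, falls outside this rule and was picked with the values known. Alternatives were quantile normalization, equal library medians, no filter, a filter of 5 RPKM in 3 or more libraries, pseudocounts of 0.1 and 0.5, the replicate number as a block, voom, unadjusted p, an added fold change limit of 0.5, each library left out, and both libraries that stand apart left out. Python 3.11.15, pandas 2.3.3, numpy 2.4.6 and matplotlib 3.10.9 served for tables and figures.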

Additional observations from a re-analysis of the deposited data

How the results depend on the processing

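The counts of 3 members higher and 0 lower were the same under quantile normalization, equal library medians, the stricter filter, both smaller pseudocounts and voom. No filter added *wrt-7*. Leaving out 1 library at a time gave 2 to 4 higher and 0 to 1 lower, the 4 and the 1 without wild-type replicate 2 and the 2 without mutant replicate 2. The unadjusted p gave 7 and 3, and leaving out both libraries that stand apart gave 7 and 6. Over all genes, 463 higher and 114 lower became 1521 and 318 with the unadjusted p and 950 and 350 without both libraries, and 319 to 506 higher and 63 to 138 lower without 1 library at a time (63 lower without wild-type replicate 3 or mutant replicate 2). Replicate numbers did not pair the samples (correlations of deviations -0.33, -0.16 and 0.34), and with the replicate number as a block 3 members were higher, 0 lower, and 64 of all genes lower. The cause of these shifts was not tested. Among all values recomputed, 366 kept their direction and side of the threshold. Signs turned for members near 0, of which *grd-5* alone was called under an alternative, lower without both libraries. Quantile normalization gave *grd-16* -0.068, *grl-7* -0.039 and *ptc-1* -0.079, and equal medians gave *grl-7* -0.091, *ptc-1* -0.093 and *qua-1* -0.043. With 1 library left out, *grd-14* ranged from -0.34 to 0.10, *grd-5* from -0.37 to 0.0028, *grd-6* from -0.41 to 0.10, *grl-5* from -0.17 to 0.062, *grl-7* from -0.030 to 0.086, *ptc-1* from -0.041 to 0.091, *ptr-18* from -0.11 to 0.095 and *qua-1* from -0.0080 to 0.17. Depth limits the 20 members under the filter, and 3 libraries per genotype limit the rest.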
